A study of Homo sapiens with 21 samples.

Results

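Fatty acid synthesis and desaturation were followed through 10 genes in HepG2 cells, an established human liver cancer line, exposed to caffeine. The genes were chosen by symbol: ACLY, ACSS2, ACACA, ACACB, FASN, ME1, SCD, ELOVL6, FADS1 and FADS2. All 10 were found among 37637 features of the count table by Ensembl ID without its version, and 9 of them were among the 17468 features tested. Poly(A)-selected RNA was sequenced after 6 h in serum-free medium with caffeine, a methylxanthine, at 0, 0.01, 0.1, 1, 10, 100 or 1000 µM. Each of the 7 groups had 3 libraries, 21 in all, which the series describes as biological replicates; whether they came from separate cultures is not stated, so p-values measure the spread between these libraries. The 0 µM group received the same medium change without caffeine and is called the control below, and all groups therefore shared 6 h without serum. All cells were of 1 tumour line, with no labels for batch or day.

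Cells build fatty acids from acetyl-CoA in the cytosol. ATP citrate lyase (ACLY) and acetyl-CoA synthetase (ACSS2) supply acetyl-CoA from citrate and acetate, the acetyl-CoA carboxylases (ACACA and ACACB) turn it into malonyl-CoA, and fatty acid synthase (FASN) condenses these units into palmitate with NADPH, part of which malic enzyme (ME1) can supply. Palmitate is then lengthened by ELOVL6 and desaturated by SCD, while FADS1 and FADS2 desaturate polyunsaturated fatty acids. In liver many of these genes are known targets of the transcription factor SREBP-1, the product of SREBF1.

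The lead result is a decrease at the top dose. Against the controls, ACSS2, FASN, SCD and FADS2 fell at 1000 µM, by 0.28 to 0.61 on the log2 scale, and no gene of the set rose. Of all features tested, 20.6% were lower and 20.6% higher. SCD lost its call in each of the 6 fits that left out 1 library of these groups. With 100 µM as the reference only FASN and FADS2 were called lower, where 6.55% of features were. Against the mean of the 3 lowest doses (0.01, 0.1 and 1 µM), all 9 tested genes fell, where 14.0% of features were lower. In that comparison ACLY and ELOVL6 lost their calls in 11 of 19 alternatives each. All ACACA and ACACB libraries at those 3 doses were above all controls. Before any correction, neither ACACA (0.015) nor ACACB (-0.17) was called at 1000 µM against the controls. At 10 µM ACACA (0.48) and ACACB (0.54) were higher than in the controls on the log2 scale, but after a correction for transcript length and GC content ACACA was at 0.16 and no longer called (adjusted p = 0.119) and ACACB was at 0.23.

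Libraries held 28043623 to 40827833 counts (median 32497612). Levels are normalised read counts in CPM, which divide each count by its library's TMM-scaled size; a count of 0 allows up to 3 counts, at most 0.0735 to 0.107 CPM depending on the library, which covers counting error only. All 11 hepatocyte and HepG2 markers, ALB and AFP among them, had a mean of at least 1 CPM, with a sum of 26104 to 31987 CPM, while the 4 fibroblast markers summed to at most 0.19 CPM, the endothelial marker CDH5 reached at most 0.22 CPM and the leukocyte markers PTPRC and CD3E at most 0.032 and 0.033 CPM. CD68, the remaining leukocyte marker, was at 53.4 to 108 CPM and not called at 1000 µM (-0.26, adjusted p = 0.17). Of the adipocyte markers, ADIPOQ was at most 0.089 CPM and PLIN1 at most 0.89 CPM, the latter lower at 1000 µM (-1.31, adjusted p = 0.0179). The libraries differed in how strongly long transcripts were represented, measured as the median log2 deviation of genes with transcripts of at least 5000 bases from their own mean over libraries, minus the same for genes under 2000 bases. This difference was -0.47 to -0.27 in the 3 controls, 0.10 to 0.13 at 10 µM and 0.16 to 0.43 at 1000 µM. A like difference for GC content (at least 55% minus under 45%) was 0.11 to 0.33 in the controls, and -0.021, -0.38 and -0.50 in replicates 1, 2 and 3 at 1000 µM. The lowest value of all, -0.60, was that of replicate 1 at 0.01 µM, and all libraries other than these 4 lay between -0.12 and 0.36. Main results are therefore also given after a correction of every library for transcript length and GC content, added after the data were seen and fitted on 15694 features. Both differences separated the controls from 1000 µM without overlap. A technical difference between libraries and a change with dose that follows length or GC content thus cannot be told apart, and the correction takes out either.

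**Figure D1:**
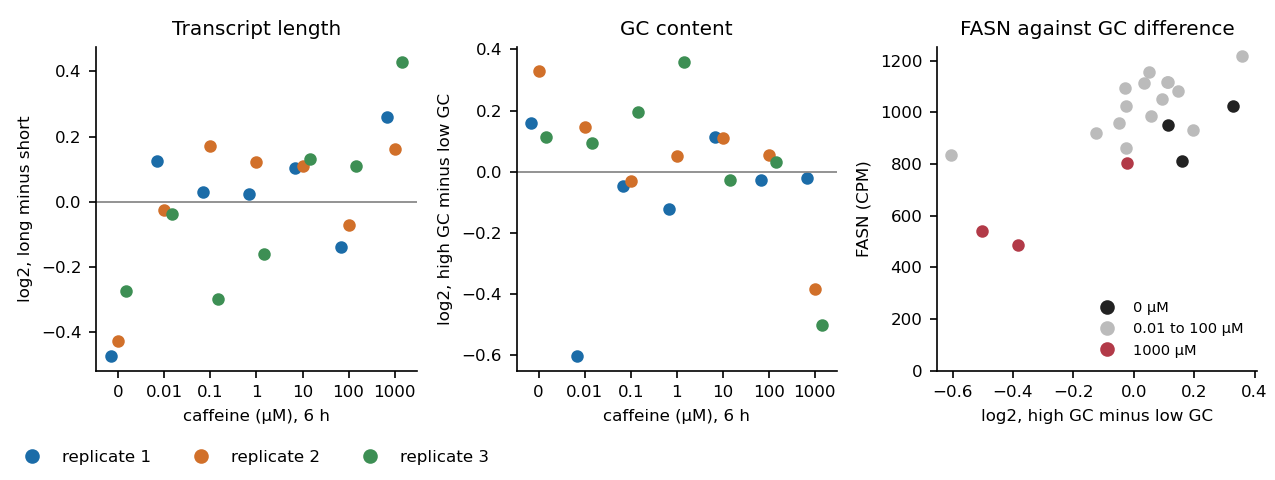
Transcript-length difference (left) and GC difference (middle) of each library by dose, both log2, and FASN in CPM against the GC difference (right). Points are single libraries; the controls lie at or near the bottom of the left panel, and replicates 2 and 3 at 1000 µM and replicate 1 at 0.01 µM have the lowest GC differences.

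Promoter sequences are shown for the 2 carboxylases, called higher at 10 µM, and for ACSS2 and SCD, called lower at 1000 µM. They are from RefSeq (GRCh38.p14), read on the strand of the gene, limited to bases outside annotated exons just before a start site. Capitals mark the CCAAT box, whose name spells its letters, and the GC box GGGCGG, each on either strand.
ACACA, chr17:37359122-37359346, minus strand: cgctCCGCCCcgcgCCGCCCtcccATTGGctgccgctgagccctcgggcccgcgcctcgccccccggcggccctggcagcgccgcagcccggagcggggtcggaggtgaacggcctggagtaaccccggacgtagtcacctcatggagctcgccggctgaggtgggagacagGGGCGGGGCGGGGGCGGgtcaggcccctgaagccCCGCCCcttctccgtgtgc
ACACB, chr12:109116337-109116586, plus strand: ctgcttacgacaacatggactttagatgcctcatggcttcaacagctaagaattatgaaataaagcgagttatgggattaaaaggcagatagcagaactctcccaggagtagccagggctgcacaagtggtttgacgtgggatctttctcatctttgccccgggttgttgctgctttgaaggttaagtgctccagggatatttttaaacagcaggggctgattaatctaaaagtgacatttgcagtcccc
SCD, chr10:100346983-100347123, plus strand: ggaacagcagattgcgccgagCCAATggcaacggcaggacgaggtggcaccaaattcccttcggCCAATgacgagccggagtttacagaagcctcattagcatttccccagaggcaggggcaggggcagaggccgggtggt
ACSS2, chr20:34876362-34876434, plus strand: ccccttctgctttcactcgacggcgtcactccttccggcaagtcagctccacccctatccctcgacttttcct
The ACACA stretch holds 6 GC boxes, some overlapping, and 1 CCAAT box; the SCD stretch holds 2 CCAAT boxes, and the other stretches hold neither motif. The full windows of 250 bases, which run on into annotated exons, hold 3 GC boxes for ACSS2 and 2 for SCD. Among all 35116 promoter windows of 250 bases in the same table, 32.01% hold CCAAT and 42.64% hold GGGCGG on either strand. TCACNCCAC, a sterol regulatory element, and the E-box CACGTG were found in no window of the 9 genes that had one, against 0.8828% and 6.345% of all windows. The nearest FADS2 window belongs to a start site 11357 bases from that of its principal transcript (GENCODE v29). The promoter at the principal start of FADS2 was thus not searched. All matches given here describe letters in the windows and were not tested against the expression values.

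Levels differed widely between the genes. Per kilobase of annotated exon (GENCODE v29), the median over the 21 libraries was 312 CPM for SCD, 105 for FASN, 49.01 for ACLY, 17.3 for FADS1, 14.9 for FADS2, 9.92 for ACSS2, 8.40 for ACACA, 4.84 for ELOVL6 and 1.55 for ACACB. SCD and FASN were thus the most abundant transcripts of the set, and ACACA was above ACACB, the isoform associated with the mitochondrial membrane. ME1 (chr6:83210389-83431071, minus strand) had a count of 0 in all 21 libraries, 0 of 691709801 counts in all, which as a counting limit is at most 0.00434 CPM over the pooled libraries. Whether this 0 belongs to the cells or to the counting was not tested, so it is not read as an expression level. It was listed in the table and was the only gene of the set that did not pass the filter on low counts. None of the other 9 depended on a single group to pass, since the lowest count of any of them in any library was 510, for ACACB.

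**Figure D2:**
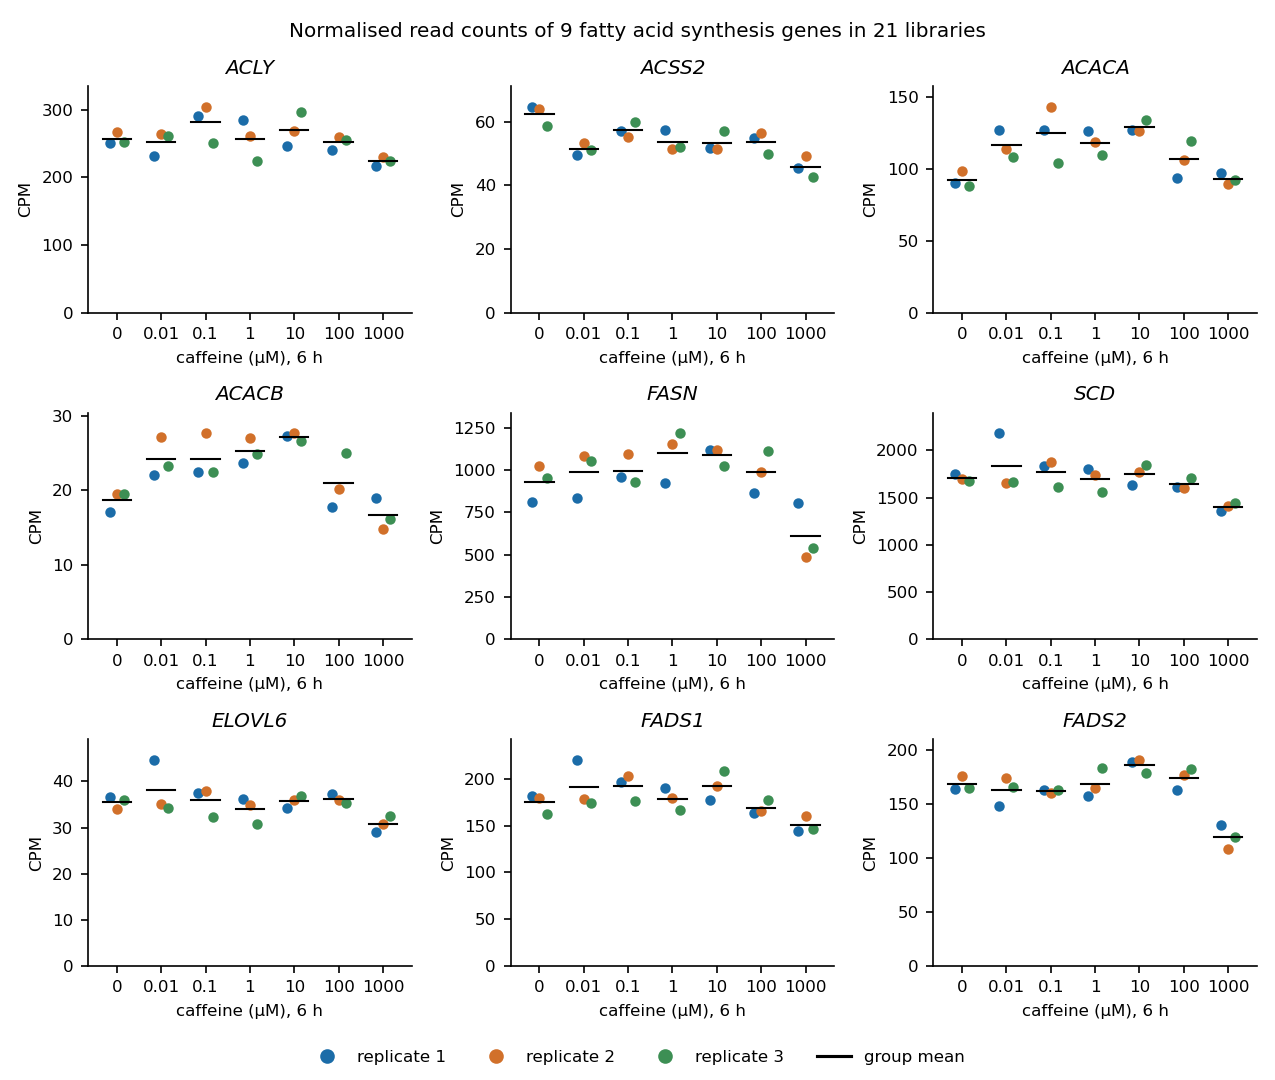
Normalised read count (CPM, linear axis from 0) of 9 genes in each library by caffeine dose, with a bar for the mean of the 3 libraries of a group. FASN and FADS2 drop at 1000 µM, the points of ACACA and ACACB from 0.01 to 10 µM lie above those of the controls, with only 10 µM past the test, and ACSS2 is highest in the controls.

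Among the suppliers of acetyl-CoA, ACSS2 fell at the top dose and ACLY did not pass the test against the controls. ACSS2 (ENSG00000131069.20, chr20:34872146-34927962, plus strand) was at 64.8, 64.1 and 58.6 CPM in the controls and at 45.4, 49.2 and 42.6 CPM at 1000 µM. The other groups held 49.6, 53.4 and 51.1 CPM (0.01 µM), 57.1, 55.4 and 60.03 CPM (0.1 µM), 57.3, 51.4 and 52.1 CPM (1 µM), 51.7, 51.6 and 56.98 CPM (10 µM), and 55.04, 56.3 and 49.95 CPM (100 µM). All 3 libraries at 1000 µM were below every other library of the series, and the controls were above all others except that control replicate 3 lay below 0.1 µM replicate 3. The mean was 62.5 ± 3.39 CPM in the controls and 45.7 ± 3.28 CPM at 1000 µM (SD, n = 3 each), a log2 difference of -0.45 ± 0.08 (SE), with an adjusted p of 0.000252 (edgeR's quasi-likelihood test, Benjamini-Hochberg adjusted over all features tested, as for every adjusted p here). After the length and GC correction the difference was -0.33 ± 0.08 (adjusted p = 0.00211). Over the 21 libraries the log2 level of ACSS2 had a Pearson r of -0.85 with the long-minus-short difference, as a description.

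ACLY (ENSG00000131473.17, chr17:41866908-41930542, minus strand) was at 251, 267 and 252 CPM in the controls and at 217, 229 and 225 CPM at 1000 µM. These groups did not overlap, yet the difference of -0.20 ± 0.10 had an adjusted p of 0.11. At 0.01 µM ACLY was at 232, 265 and 262 CPM, at 0.1 µM at 291, 305 and 251 CPM, at 1 µM at 285, 262 and 224 CPM, at 10 µM at 247, 268 and 297 CPM and at 100 µM at 240.1, 259 and 256 CPM. Each dose from 0.01 to 100 µM overlapped the control range, and 1 library at 1 µM lay within the range at 1000 µM. With the correction, ACLY was lower at 1000 µM than in the controls (-0.24 ± 0.09, adjusted p = 0.036). An antisense gene, AC125257.2, shares 156 exon bases with ACLY, and whether the counting used strand is not given in the sources used here.

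The 2 acetyl-CoA carboxylases were higher at 10 µM than in the controls, and at 1000 µM their libraries overlapped the controls. ACACA (ENSG00000278540.5, chr17:37084988-37406818, minus strand), the cytosolic enzyme that commits acetyl-CoA to synthesis, was at 89.7, 98.6 and 88.1 CPM in the controls, 127, 126 and 134 CPM at 10 µM, then 97.3, 89.6 and 92.4 CPM at 1000 µM. At the other doses it was at 127, 113 and 108 CPM (0.01 µM), 127, 143 and 104 CPM (0.1 µM), 126, 119 and 109 CPM (1 µM) and 93.5, 106 and 119.5 CPM (100 µM). Every library from 0.01 to 10 µM was above all controls, while 100 µM overlapped them and 1000 µM lay inside their range.

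ACACB (ENSG00000076555.15, chr12:109116595-109268226, plus strand), whose malonyl-CoA restrains fatty acid uptake into mitochondria, was at 17.1, 19.5 and 19.5 CPM in the controls, 27.3, 27.7 and 26.7 CPM at 10 µM, then 18.95, 14.9 and 16.2 CPM at 1000 µM. Its other values were 22.02, 27.2 and 23.3 CPM (0.01 µM), 22.5, 27.7 and 22.5 CPM (0.1 µM), 23.7, 27.1 and 24.9 CPM (1 µM) and 17.7, 20.2 and 24.98 CPM (100 µM). As for ACACA, all libraries from 0.01 to 10 µM were above all controls, and those at 100 and 1000 µM overlapped them. Of all features tested, 15.7%, 10.1%, 11.1% and 22.4% had all libraries above all controls at 0.01, 0.1, 1 and 10 µM.

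At 10 µM the log2 difference from the controls was 0.48 ± 0.11 for ACACA (adjusted p = 0.00714) and 0.54 ± 0.13 for ACACB (adjusted p = 0.00809), 1.40-fold and 1.46-fold. In that comparison 3 of the 9 genes passed the test, the third being ACSS2, which was lower (-0.23 ± 0.08, adjusted p = 0.0477). Of all features tested, 22.0% passed, with 11.3% higher and 10.7% lower. ACACA and ACACB have the longest transcripts of the set, at 9961 and 9360 bases, and long transcripts were less represented in the controls than at 10 µM. With the length and GC correction ACACA was no longer called (0.16 ± 0.07, adjusted p = 0.119), ACACB was called at a smaller size (0.23 ± 0.07, adjusted p = 0.029), ACSS2 was not called (-0.19 ± 0.08, adjusted p = 0.0837) and ELOVL6 was lower (-0.18 ± 0.06, adjusted p = 0.0251), 2 of 9 genes where 21.8% of features passed. Without replicate 1 of the controls, ACACB had an adjusted p of 0.0512, and ACSS2 lost its call in 9 of 13 alternatives.

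FASN, which carries out all steps from malonyl-CoA to palmitate, was the gene with the largest difference at 1000 µM in the set. FASN (ENSG00000169710.9, chr17:82078333-82098332, minus strand) was at 811, 1026 and 949.97 CPM in the controls and at 804, 485 and 541 CPM at 1000 µM. It was at 835, 1081 and 1051 CPM at 0.01 µM, at 960.3, 1095 and 930.4 CPM at 0.1 µM, at 921, 1155 and 1217 CPM at 1 µM, at 1116, 1119 and 1025 CPM at 10 µM and at 864, 988 and 1114 CPM at 100 µM. Replicates 2 and 3 at 1000 µM were far below every other library, and replicate 1 lay just below the lowest control. The 6 groups from 0 to 100 µM overlapped one another.

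The FASN difference was -0.61 ± 0.16 (adjusted p = 0.00655), 1.52-fold lower, between a mean of 929 ± 109 CPM in the controls and 609.9 ± 170.3 CPM at 1000 µM (SD, n = 3 each). FASN has the highest transcript GC content of the set, 65.3%, and its level had a Pearson r of 0.70 over the 21 libraries with the GC difference, which was low in the same 2 replicates at 1000 µM. Replicate 1 at 0.01 µM had the lowest GC difference and 835 CPM of FASN. This level was above the lowest control but below all other libraries from 0.01 to 100 µM. The other libraries at 0.01 µM were at 1081 and 1051 CPM. After the correction the difference was -0.56 ± 0.08 (adjusted p = 3.93e-05), so the decrease was nearly as large. Against 100 µM in place of the controls it was -0.70 ± 0.16 (adjusted p = 0.00787).

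Of the elongase and desaturases, SCD and FADS2 fell at 1000 µM. SCD (ENSG00000099194.6, chr10:100347124-100364834, plus strand), which makes oleate from stearate, was at 1747, 1697 and 1672 CPM in the controls and at 1359.5, 1413 and 1438 CPM at 1000 µM. In the remaining groups it was at 2180.4, 1659 and 1662 CPM (0.01 µM), 1830.00, 1875 and 1609.99 CPM (0.1 µM), 1805, 1734 and 1561 CPM (1 µM), 1633, 1773 and 1848 CPM (10 µM) and 1612, 1604 and 1709.8 CPM (100 µM). The libraries at 1000 µM were below all 18 others, and those 18 overlapped across doses, with replicate 1 at 0.01 µM standing above the rest.

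The difference from the controls was -0.28 ± 0.10 for SCD (adjusted p = 0.0281), 1.21-fold lower. SCD lost its call in each of the 6 fits that left out 1 library of these groups, and with 100 µM as the reference (-0.23 ± 0.10, adjusted p = 0.128). With the correction for length and GC content the SCD difference was -0.48 ± 0.08 (adjusted p = 0.000234).

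FADS2 (ENSG00000134824.14, chr11:61792980-61867354, plus strand), the delta-6 desaturase at the entry of polyunsaturated fatty acid synthesis, was at 164, 176 and 164 CPM in the controls and at 130.2, 108 and 119 CPM at 1000 µM. Elsewhere FADS2 was at 148, 173 and 166 CPM (0.01 µM), 162, 159.6 and 163 CPM (0.1 µM), 158, 164 and 183 CPM (1 µM), 188, 191 and 179 CPM (10 µM) and 162, 177 and 182 CPM (100 µM). All libraries at 1000 µM were below the 18 others, and 10 µM lay above all controls. The difference between 1000 µM and the controls was -0.50 ± 0.09 (adjusted p = 0.000217), 1.41-fold lower, and -0.47 ± 0.06 after the correction (adjusted p = 7.04e-06). The FADS2 transcript has a GC content of 58.6%, and its level had an r of 0.72 with the GC difference over the 21 libraries.

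FADS1 and ELOVL6 had all 3 libraries at 1000 µM below all controls and did not pass the test. FADS1 (ENSG00000149485.18, chr11:61799625-61829318, minus strand), the delta-5 desaturase, was at 182, 179.7 and 163 CPM in the controls and 144, 161 and 147 CPM at 1000 µM, a difference of -0.22 ± 0.10 (adjusted p = 0.0806). Its values at 0.01, 0.1, 1, 10 and 100 µM ran from 174 to 220.3 CPM, 177 to 202 CPM, 167 to 189.8 CPM, 177 to 208 CPM and 163 to 177 CPM. All libraries at 1000 µM were again below the other 18, by a small margin from 100 µM and the lowest control. ELOVL6 (ENSG00000170522.9, chr4:110045846-110199199, minus strand), which extends palmitate to stearate, was at 36.5, 34.1 and 35.9 CPM in the controls and 28.95, 30.7 and 32.6 CPM at 1000 µM (-0.21 ± 0.10, adjusted p = 0.104). Over 0.01 to 100 µM ELOVL6 spanned 30.7 to 44.7 CPM and so overlapped the top dose through replicate 3 at 1 µM and replicate 3 at 0.1 µM.

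FADS1 and FADS2 lie next to each other on opposite strands and share 490 annotated exon bases, 4.79% of those of FADS1 and 4.44% of those of FADS2. Without known strand, reads over these bases could be counted for either gene. FADS2 also shares 49 exon bases with FEN1 on the same strand.

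In all, 4 of 9 tested genes were lower and 0 were higher at 1000 µM than in the controls, where 41.2% of all features passed the test and 20.6% passed it as lower. The median difference of the 9 genes was -0.22, against -0.030 over all features tested. For 7 of 9 genes all 3 libraries at 1000 µM were below all controls, as for 27.3% of features tested. In bulk RNA, fewer expressing cells and less RNA per cell cannot be told apart. After the length and GC correction all 9 genes were lower, with differences from -0.24 for ACLY to -0.56 for FASN, against 19.7% of features lower. That correction was fitted to each library whatever its dose, and the length and GC differences it adjusts separated these 2 groups without overlap. ACACA and ACACB showed the largest shift with the correction beside ELOVL6: uncorrected, ACACA differed by 0.015 ± 0.11 (adjusted p = 0.929) and ACACB by -0.17 ± 0.13 (adjusted p = 0.318), and corrected they differed by -0.29 ± 0.07 (adjusted p = 0.00378) and -0.37 ± 0.07 (adjusted p = 0.00067). ELOVL6 moved to -0.55 ± 0.06 (adjusted p = 5.78e-07) and FADS1 to -0.31 ± 0.10 (adjusted p = 0.0166). With 100 µM as the reference 2 of 9 genes, FASN and FADS2, were lower, where 6.55% of features were; the FADS2 difference was then -0.54 ± 0.09 (adjusted p = 0.000351) and that of ACSS2 -0.23 ± 0.08 (adjusted p = 0.054).

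**Figure D3:**
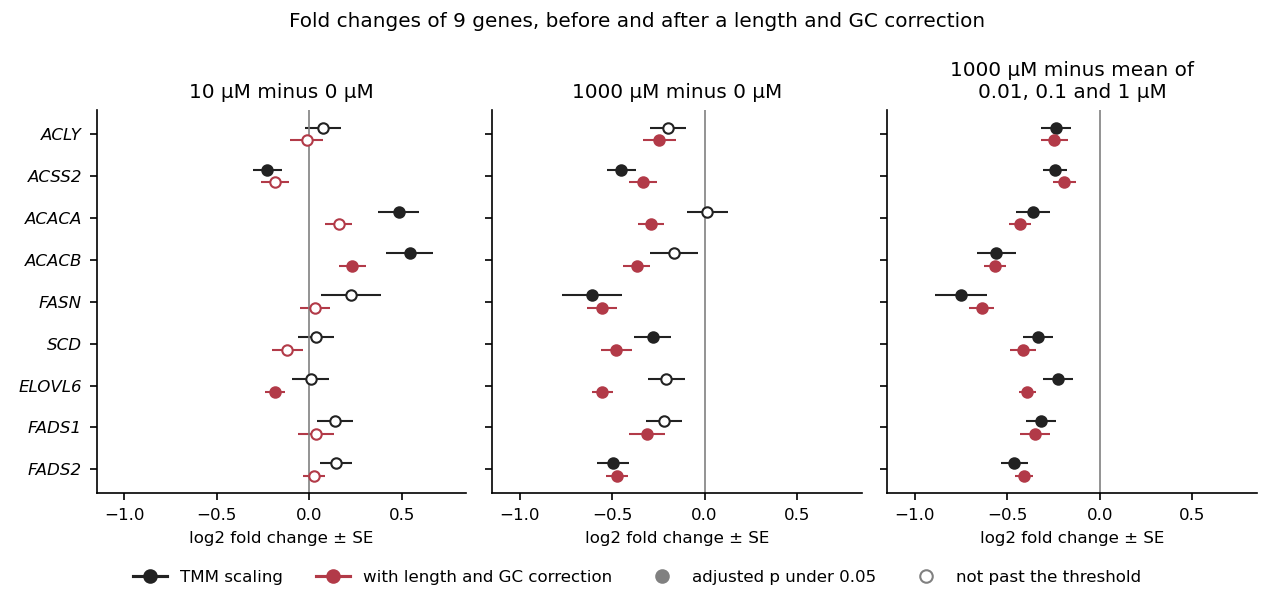
Log2 differences with their standard errors for 9 genes in 3 comparisons, with TMM scaling (black) and with the added length and GC correction (red); filled points have an adjusted p under 0.05. All 9 red points are filled and negative at 1000 µM in both the middle and the right panel, and ACACA and ACACB move toward 0 at 10 µM on the left.

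The top dose was also set against the mean of 0.01, 0.1 and 1 µM, which does not use the control libraries. All 9 tested genes were lower at 1000 µM in this comparison, where 30.1% of features passed the test and 14.0% passed it as lower. For ACACA and ACACB all libraries of this reference were themselves above all controls. The median difference was -0.33 for the 9 genes and -0.020 over all features tested. FASN differed most (-0.75 ± 0.14, adjusted p = 5e-04), 1.68-fold, followed by ACACB (-0.56 ± 0.11, adjusted p = 0.000692), FADS2 (-0.46 ± 0.07, adjusted p = 9.18e-05) and ACACA (-0.36 ± 0.09, adjusted p = 0.00614). SCD differed by -0.33 ± 0.08 (adjusted p = 0.00458) and FADS1 by -0.32 ± 0.08 (adjusted p = 0.00623). The smallest differences were those of ACSS2 (-0.24 ± 0.07, adjusted p = 0.00915), ACLY (-0.24 ± 0.08, adjusted p = 0.0325) and ELOVL6 (-0.22 ± 0.08, adjusted p = 0.0466). ACLY and ELOVL6 were the 2 genes whose libraries at 1000 µM overlapped those of the lower doses, and 7 of 9 genes did not overlap, as for 7.53% of features. With the length and GC correction 9 of 9 genes were lower too, where 16.8% of features were, from -0.19 ± 0.06 for ACSS2 (adjusted p = 0.0236) to -0.64 ± 0.07 for FASN (adjusted p = 9.57e-07). Without replicate 3 at 1000 µM 6 of the 9 passed, and ACLY, ACSS2 and ELOVL6 did not; ACLY and ELOVL6 lost their calls in 11 of 19 alternatives each.

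The lowest doses gave few calls against the controls. At 0.01 µM only ACSS2 passed (-0.28 ± 0.08, adjusted p = 0.0475), 1 of 9 genes where 4.95% of features passed, and it lost the call in 10 of 13 alternatives. ACACA (0.34 ± 0.11, adjusted p = 0.0728) and ACACB (0.37 ± 0.13, adjusted p = 0.0827) had all 3 libraries at that dose above all controls without passing. At 0.1 and at 1 µM, 0 of 9 genes passed edgeR's test, where 0% of features passed. Unadjusted edgeR p-values were under 0.05 for 2 genes at 0.1 µM and 3 genes at 1 µM. DESeq2 called 1 gene at 0.1 µM (ACACA, higher) and 2 at 1 µM (ACACA and ACACB, higher). The shares of all features for DESeq2 and for unadjusted p are not given here, so these counts are not set against a background. At 100 µM 0 of 9 genes passed in edgeR, where 6.02% of features passed, and 0 passed in DESeq2. In edgeR 1 unadjusted p was under 0.05, that of ACSS2. The comparisons of the doses with 0 µM share the same 3 control libraries.

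A straight slope of log2 level on the order of the 7 doses passed the test for 2 of 9 genes. ACSS2 changed by -0.048 ± 0.014 per step (adjusted p = 0.0115) and SCD by -0.042 ± 0.015 per step (adjusted p = 0.0387), where 29.0% of features passed and 14.5% passed as lower. For FASN the slope was -0.053 ± 0.033 (adjusted p = 0.235) and for FADS2 -0.034 ± 0.021 (adjusted p = 0.241). Without the 3 libraries at 1000 µM the slope was -0.030 ± 0.016 for ACSS2 (adjusted p = 0.227), -0.015 ± 0.017 for SCD (adjusted p = 0.59), 0.029 ± 0.022 for FASN (adjusted p = 0.416) and 0.025 ± 0.015 for FADS2 (adjusted p = 0.27). The signs for FASN and FADS2 thus turned without the top dose, while neither passed in either form.

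Across the 21 libraries the genes varied together to different degrees. Pearson's r of log2 CPM had a median of 0.50 over the 36 pairs. It was highest for SCD with FADS1 (0.94), FASN with FADS2 (0.92), SCD with ELOVL6 (0.91) and ACACA with ACACB (0.85), and lowest for ACSS2 with ACACA (-0.01). The median thus includes the libraries at 1000 µM. Without them r was lower in every pair and below 0 in many. It was then 0.91 for SCD with FADS1, 0.81 for ACACA with ACACB and 0.67 for FASN with FADS2. The r of FASN with SCD went from 0.45 to -0.34, and that of SCD with FADS2 from 0.46 to -0.52. ACSS2 had an r of -0.51 with ACACA and -0.61 with ACACB once these libraries were left out. The points share library depth and the length and GC differences given above. Among all tested genes with a symbol and a mean of at least 5 CPM, the one most like SCD was FADS1 and the one most like FADS1 was SCD. The gene most like FASN was EPPK1 (r = 0.98), that most like FADS2 was NFE2 (0.96), that most like ACACB was ZHX3 (0.97), that most like ACACA was TRIM25 (0.95) and that most like ACSS2 was SIVA1 (0.97).

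**Figure D4:**
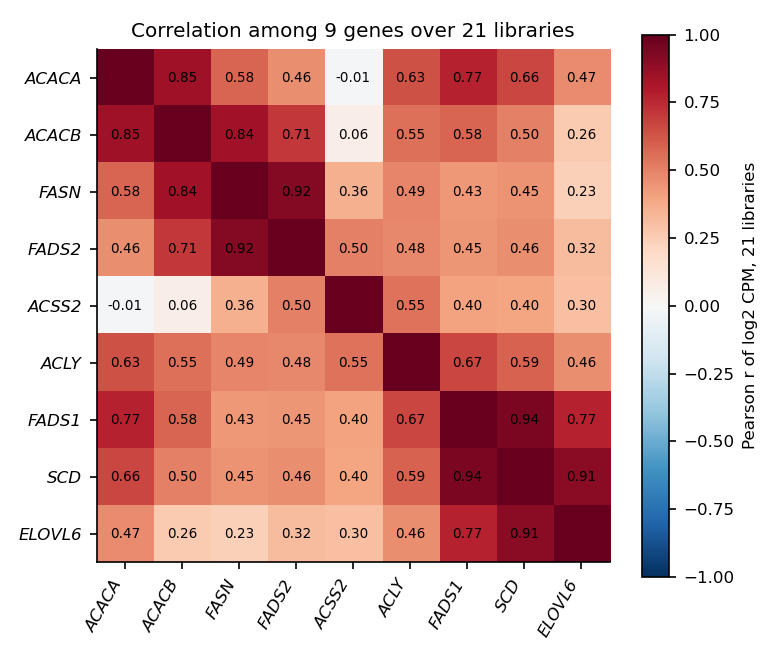
Pearson correlation of log2 CPM between 9 genes over 21 libraries, with the value in each cell. SCD is close to FADS1 and ELOVL6, FASN to FADS2 and ACACB, and ACACA to ACACB (0.85) and FADS1 (0.77). ACSS2 is near 0 with both carboxylases over the 21 libraries. Without those at 1000 µM, which is not drawn, its r was -0.51 with ACACA and -0.61 with ACACB.

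Genes around the pathway were listed as 83 genes in 6 further lists, of which 82 were in the table and 75 were tested in the same fit. They are given by their counts at 1000 µM against the controls, where 20.6% of all features were higher and 20.6% lower, or 20.5% and 19.7% with the correction. Of 14 tested controllers of lipid synthesis 1 was higher and 1 lower (1 and 2 with the correction). The lower one was SREBF1, with 121 ± 4.31 CPM in the controls (117 to 125 CPM) and 74.04 ± 12.3 CPM at 1000 µM (62.7 to 87.2 CPM; SD, n = 3 each), a difference of -0.70 ± 0.15 (adjusted p = 0.000992) and, corrected for length and GC content, -0.56 ± 0.06 (adjusted p = 8.79e-07). The control and 1000 µM groups of SREBF1 did not overlap, and its groups from 0.01 to 100 µM had means of 103 to 118 CPM. The lowest library at 0.01 µM, at 75.6 CPM, lay within the range at 1000 µM. The related SREBF2 differed by -0.12 ± 0.09 (adjusted p = 0.336), or by -0.16 ± 0.05 with the correction (adjusted p = 0.0222). MLXIPL, which encodes the glucose-responsive factor ChREBP, differed by -0.071 ± 0.19 (adjusted p = 0.789) and INSIG2, which retains SREBP precursors in the endoplasmic reticulum, by 0.34 ± 0.21 (adjusted p = 0.193). MBTPS1, the protease that makes the first cut in those precursors, was higher (0.42 ± 0.07, adjusted p = 0.000202). INSIG2 had a mean of 55.8 CPM at 1000 µM and 44.03 CPM in the controls. Its means at 0.01, 0.1 and 1 µM were 37.6, 39.6 and 33.7 CPM. The INSIG2 libraries at 1000 µM (46.9 to 63.1 CPM) overlapped those of the controls and of 0.01 µM. INSIG1 was not analysed here.

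Of 7 genes known for control by sterols, chosen for comparison, 4 were lower and 0 higher at 1000 µM, where 20.6% of features were lower, with a median difference of -0.46 against -0.030 over all features. The 4 encode enzymes of cholesterol synthesis: HMGCS1 (-0.64 ± 0.14, adjusted p = 0.00143), IDI1 (-0.62 ± 0.13, adjusted p = 0.000883), LSS (-0.60 ± 0.11, adjusted p = 0.000331) and SQLE (-0.46 ± 0.09, adjusted p = 0.000622). With the correction 6 of the 7 were lower.

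Genes that supply citrate and NADPH to the pathway gave 2 lower and 0 higher of 10 tested, a share lower that is near the 20.6% of all features; with the correction 3 other genes were lower and 1 was higher. SLC25A1, the mitochondrial citrate carrier, went from 115.5 ± 17.5 CPM to 62.2 ± 4.35 CPM (SD, n = 3 each; -0.89 ± 0.11, adjusted p = 6.66e-06) and was at -0.29 ± 0.15 after the correction (adjusted p = 0.131). PGLS of the pentose phosphate pathway differed by -0.58 ± 0.19 (adjusted p = 0.0208). Corrected, PGLS was at -0.11 (adjusted p = 0.426), and with 100 µM as the reference it was at -0.43 (adjusted p = 0.136).

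Relatives and partners of the elongases, desaturases and synthases had 4 higher and 7 lower of 18 tested (4 and 9 with the correction), where 20.6% of features passed in each direction, so that the higher count is near the background. ELOVL3, a low transcript, was lower (-1.43 ± 0.28, adjusted p = 0.000548), as were MCAT of mitochondrial fatty acid synthesis (-0.67 ± 0.14, adjusted p = 0.00122) and HACD1, a dehydratase of the elongation cycle (-0.49 ± 0.12, adjusted p = 0.00251). ACSS3, a mitochondrial relative of ACSS2, was higher (0.46 ± 0.08, adjusted p = 0.000192) but at -0.013 with the correction (adjusted p = 0.916). With 100 µM as the reference these 4 calls were lost: ELOVL3 was at -0.82 (adjusted p = 0.0562), MCAT at -0.40 (adjusted p = 0.0674), HACD1 at -0.050 (adjusted p = 0.815) and ACSS3 at 0.21 (adjusted p = 0.0763).

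Of 17 tested genes that place fatty acids into lipids, 5 were higher and 6 lower (5 and 3 with the correction), where 20.6% of all features passed in each direction. GPAM, which starts glycerolipid synthesis, rose from 299 ± 16.7 CPM in the controls to 798 ± 55.9 CPM (SD, n = 3 each), 2.67-fold (1.42 ± 0.12 on the log2 scale, adjusted p = 2.8e-07). PLIN2, a lipid droplet coat protein, rose 1.84-fold (0.88 ± 0.08, adjusted p = 2.86e-07) and ACSL3, an acyl-CoA synthetase, by 0.67 ± 0.08 (adjusted p = 7.72e-06), while PNPLA3, a lipid droplet protein, fell by 0.94 ± 0.10 (adjusted p = 1.4e-06). GPAM, PLIN2, ACSL3 and PNPLA3 kept these calls in all 14 alternatives, ACSL3 at 0.28 (adjusted p = 0.027) with 100 µM as the reference.

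Among 9 tested genes that control the carboxylases, 3 were higher and 3 lower (3 and 2 with the correction), beside 20.6% of all features in each direction. The higher ones encode subunits of AMPK, the kinase that inactivates both carboxylases: PRKAA2 (0.99 ± 0.21, adjusted p = 0.00108), PRKAB2 (0.83 ± 0.12, adjusted p = 3.33e-05) and PRKAA1 (0.74 ± 0.15, adjusted p = 0.00067). The AMPK subunits PRKAB1 and PRKAG1 were not called higher. Their means were 63.9 and 28.8 CPM in the controls and 66.3 and 26.5 CPM at 1000 µM. STK11, of the same list, had a mean of 68.8 CPM in the controls and 47.8 CPM at 1000 µM. MLYCD, which degrades malonyl-CoA, was lower (-0.49 ± 0.11, adjusted p = 0.00229). With 100 µM as the reference PRKAA1 was at 0.19 (adjusted p = 0.405), MLYCD at -0.14 (adjusted p = 0.432) and PRKAB2 at 0.44 (adjusted p = 0.016).

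**Figure D5:**
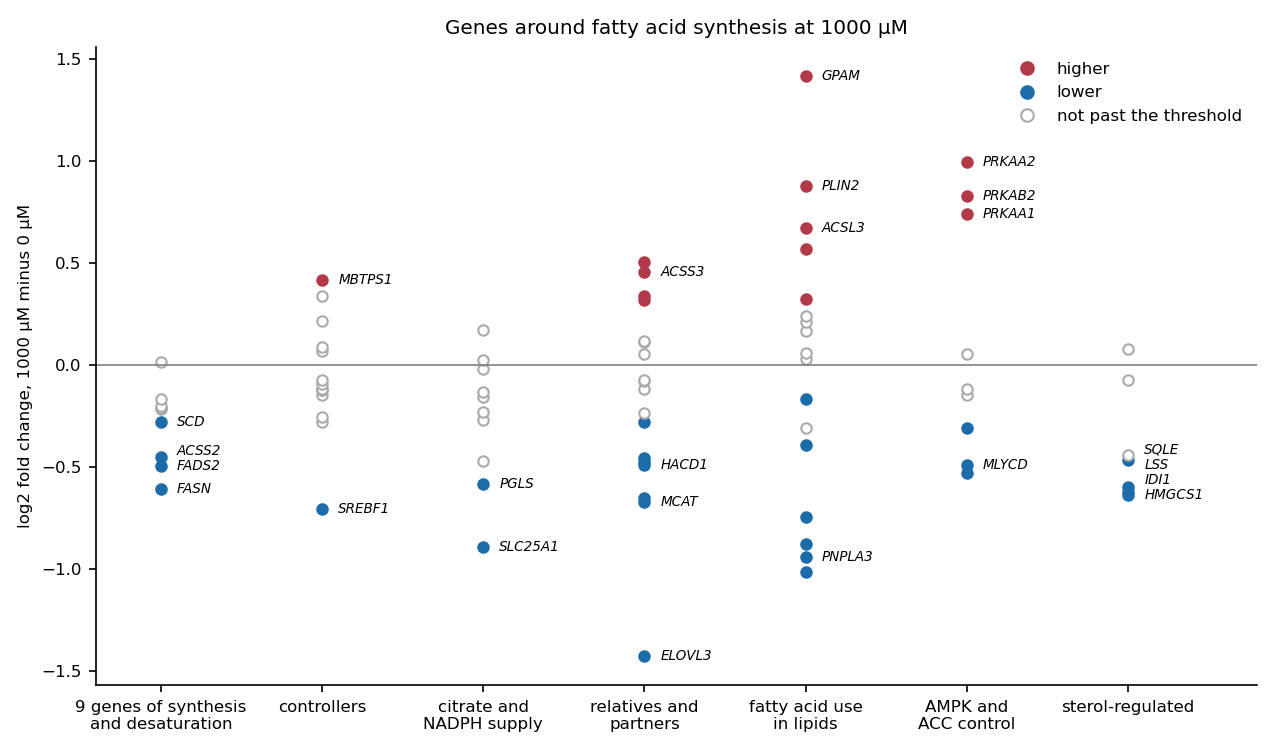
Log2 difference between 1000 µM and 0 µM for each tested gene of the set and of 6 surrounding lists, filled where the adjusted p is under 0.05. The set, the sterol-regulated genes and the list for citrate and NADPH supply hold lower calls only, while the other lists hold calls in both directions.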

How the data were processed

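The authors deposited 1 table of raw read counts per gene, in whole numbers and without normalization. HISAT2, DESeq2 and the build GRCh38 are named in the submitters' processing notes, with no role or version; the counting program, annotation and use of strand are not given in the sources used here. The table has 42 per-sample columns; the 21 whose names match these samples were used and the other 21 were not used. Symbols were matched to Ensembl IDs without version, and 32264 of the 32937 Ensembl features had one. Positions, lengths and overlaps are from GENCODE v29 (GRCh38).

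Differences were tested with TMM-scaled counts and edgeR 4.0.16 in R 4.3.3 (quasi-likelihood test), after its expression filter at a minimum count of 10. A single fit took all 21 libraries in 7 groups and had 14 residual degrees of freedom. A separate fit gave the slope over the order of doses. Benjamini-Hochberg adjustment ran over all features tested, and calls have an adjusted p under 0.05. Standard errors were taken from the fold change and its F statistic. The precision is set by totals of 28043623 to 40827833 counts and by 3 libraries per group. Scripts were tested on simulated data.

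Alternatives were DESeq2 (1.42.0), RLE scaling, other filters, a replicate block, fewer samples and leaving out each library; the length and GC correction (splines in each library, GENCODE v29 longest transcript) and the reference of 100 µM were chosen after seeing the data. Same-numbered replicates did not vary together, so the block is only an alternative. No pair of libraries was close enough to be 1 library deposited again (chi-square per gene 5.18 to 195 over 21 pairs within groups). The series text names another compound for its control group, and the sample labels were followed.

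The 10 genes and all lists were chosen with earlier results of these data known, and 2 genes of the surrounding lists are not reported here. All 10 genes are named. Of the surrounding lists, SREBF1, SREBF2, INSIG1, INSIG2 and MLXIPL were named whatever their values. Named too were up to 4 other genes of each list past the threshold at 1000 µM with the smallest p. PRKAB1, PRKAG1 and STK11 were added outside this rule. Genes most alike are those with the highest Pearson r of log2 CPM (prior count 2). FASN had no promoter window in the table used.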

Additional observations from a re-analysis of the deposited data

How the results depend on the processing

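None of the 19 called results of the set reversed in 339 comparisons with an alternative: 270 kept their side of the threshold and 69 did not pass it. At 1000 µM against the controls, 4 genes were called, 9 with the length and GC correction and 2 with 100 µM as the reference; FASN (-0.83 to -0.45) and FADS2 (-0.54 to -0.41) passed in all 14 alternatives, and fits leaving out 1 library gave 3 to 3, each without SCD. Against the mean of 0.01, 0.1 and 1 µM these gave 6 to 9. At 0.01 µM the 1 call became 0 with RLE scaling, no filter, the 6 samples alone or the correction, 3 with DESeq2, and 0 to 1 without 1 library. At 0.1 µM DESeq2 gave 1 and at 1 µM 2, with 0 to 1 at both doses without 1 library; the 1 call came without 0.1 µM replicate 3 (ACACA) and without 1 µM replicate 1 (ACACB). At 10 µM leaving out 1 library gave 1 to 3, with 1 (ACACA) without control replicate 1. The 2 slopes became 0 with no filter, 0 without the 1000 µM group, 8 with dose on a linear scale and 5 with the correction, and 1 to 3 without 1 library; control replicate 3 left out gave 3. The cause of these changes was not tested, beyond the construction of each alternative. Shares of all features are given above only for the correction at 10 and 1000 µM and for 100 µM as the reference. For the other alternatives they are not given here. Their counts, such as the 8 with dose on a linear scale, are therefore not set against a background. Values of the set that were not called did change sign: with the correction ACACA at 1000 µM (0.015 to -0.29) and ELOVL6 at 10 µM (0.0089 to -0.18) became lower, and without 1000 µM the slopes of FASN (-0.053 to 0.029) and FADS2 (-0.034 to 0.025) turned. Outside the set, ACSS3 (-0.013) changed sign at 1000 µM with the correction.

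The replicate numbers share only a number: 11 of 63 same-numbered pairs had a correlation of deviations over 0.1, and 5 of 21 libraries correlated best with their own number. With the replicate block the count was 0 at 0.01 µM, 1 for the slope (ACSS2), 2 at 10 µM (without ACSS2, adjusted p = 0.0694) and 8 against the mean of the 3 low doses (without ELOVL6, adjusted p = 0.0588); the other counts were the same.

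The lowest count of these 9 genes was 510, and each group had 3 libraries; which of them limits the precision was not tested. The labels name no batches, so there are no within-batch values. Proteins and fatty acids were not measured.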
